A study of Mus musculus with 8 samples.

Results

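Pkd1, Hnrnpf, Acadvl, Rps6kl1, Smarcc2, Fbxo32, Strbp, Sft2d2 and Setd2 are 9 genes of 9962 named in a table of Argonaute-bound clusters from mouse forebrain. A cluster is a stretch of genome covered by crosslinked reads. They were chosen by their reads: a high sum over exonic clusters (clusters placed in a 3′ UTR, coding sequence or 5′ UTR), most of it held in 1 cluster. Their clusters are those whose gene columns name them exactly, 72 of 70142 in all. Of these 72 clusters, 55 were exonic and 17 lay in introns only. The deepest exonic cluster of each gene is called its site here, and read numbers, shares and ranks by reads describe how the genes were chosen and carry no test.

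The data come from FLAG-Ago HITS-CLIP, in which ultraviolet light links RNA to the Argonaute protein, the protein is pulled down through a FLAG tag, and the attached RNA pieces are sequenced. The Flag-Ago2 group had 5 libraries, labelled 1, 2a, 2b, 3a and 3b, from mice with Camk2a-cre and the Rosa-Stopfl/fl-Flag-Ago2 allele, in which Cre driven by the Camk2a promoter of forebrain excitatory neurons removes a stop in front of the tagged protein. The control group had 3 libraries, labelled 1, 2 and 3, from mice with the Rosa-Stopfl/fl-Flag-Ago2 allele and no Cre. Mice of both groups were 8 to 14 weeks old, and the tissue was forebrain. The labels do not say whether libraries 2a and 2b, or 3a and 3b, came from separate animals.

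The table holds 1 read count per cluster for the whole study. It has no column of a single library or group, so no value here has a replicate spread, no value can be given for the control mice, and Flag-Ago2 was not compared with control. The table sums to 1834586 reads, of which 730782 lie in 23138 exonic clusters of 8110 genes, and its lowest count is 10. All 6 excitatory neuron markers examined had an exonic cluster (956 reads summed), as did all 6 astrocyte markers (1756 reads). Camk2a alone held 618 of the neuron reads and Slc1a2 1105 of the astrocyte reads. The other lists had exonic clusters for 3 of 6 interneuron markers (308 reads, without Pvalb, Sst and Vip), 5 of 6 oligodendrocyte markers (748 reads, without Mog) and 3 of 6 microglial markers (66 reads, without P2ry12, Tmem119 and Aif1). The part that RNA from cells without the tagged protein has in the 9 sites was not tested. No RNA level stands beside the clusters, so a transcript present in more copies and one bound more often cannot be told apart, nor can cell number and RNA per cell.

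Argonaute proteins carry microRNAs, short RNAs that guide them to messenger RNAs by pairing of the seed, the bases near the microRNA's 5′ end, with a complementary stretch of the target. Most well-studied target sites lie in 3′ UTRs, and binding there commonly lowers the stability or translation of the messenger RNA. Argonaute also binds RNAs that are not such targets, among them some short introns that are spliced out and folded, known as mirtrons where Dicer cuts them and as agotrons where they are bound whole.

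The microRNAs below come from a list of 30 families known from brain. Printed are those matched in at least 2 of the 9 sites, or placed in 1 site with base 8 of the microRNA also paired. Of 22 families of other tissues, miR-146 and miR-217 also had matches in 2 sites each and are not printed. The sequences are the RefSeq mature forms (GRCm38.p6), 5′ to 3′, and capitals mark the seed, bases 2 to 8.
miR-128-3p: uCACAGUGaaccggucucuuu
miR-27b-3p: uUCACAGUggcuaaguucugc
miR-101a-3p: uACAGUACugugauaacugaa
miR-29b-3p: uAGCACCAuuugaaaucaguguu
miR-9-5p: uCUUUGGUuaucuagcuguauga
miR-16-5p: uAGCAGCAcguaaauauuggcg
miR-103-3p: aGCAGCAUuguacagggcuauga
miR-132-3p: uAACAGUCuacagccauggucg
miR-22-3p: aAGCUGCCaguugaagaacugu
miR-125b-5p: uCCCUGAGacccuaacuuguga
No 2 of these 10 share a whole seed. The seeds of miR-128 and miR-27 are the same run of letters moved by 1 base, and so are those of miR-16 and miR-103, so 1 stretch of target can match both members of such a pair. Families are named here by 1 microRNA each: that of miR-16 also holds miR-15 and miR-195, that of miR-103 holds miR-107, and that of miR-132 holds miR-212. miR-124 also has matches among the sites.

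The target stretches below show some of those matches, in Hnrnpf, Fbxo32, Setd2, Strbp and Sft2d2. Each is 30 bases of the gene's own strand, rebuilt from GENCODE M21 transcripts on mm10, and capitals mark the bases that pair with bases 2 to 7 of the named microRNAs.
Hnrnpf, miR-101, miR-128 and miR-27 matches: agctttctttgTACTGTGAtttccttttgg
Hnrnpf, miR-9 and miR-29 matches: ctggagaacCCAAAGGTGCTagatccctga
Fbxo32, miR-128 match: agagacatgaacACTGTGgaagaaaggaga
Fbxo32, miR-125 match: gagaaggagatcTCAGGGcttaaggagtta
Setd2, miR-128 match: ttagagactgtcACTGTGgaagaggatgaa
Strbp, miR-29 match: ttaggatttatgGGTGCTtagaatttcaca
Sft2d2, miR-132 match: tactccaggctgACTGTTgggatgctgtgg
The miR-128 stretches of Fbxo32, in a 3′ UTR, and of Setd2, in coding sequence, are alike beyond the seed. They share CACTGTGGAAGA, which at 12 bases is the longest word common to any of the 36 pairs of sites in the bases at hand. The median over pairs was 7 bases and the lowest 6. Among 13985 exonic clusters whose bases could be rebuilt, 6 held that word, the 2 sites included.

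The 9 sites together held 44538 reads, which was 6.095% of all exonic reads in 9 of 23138 exonic clusters. Single sites held between 1297 reads (Setd2) and 17721 reads (Pkd1), with a median of 3317, against a median of 21 reads over all exonic clusters. In the order of genes by exonic reads the 9 stood at places 1 to 7, 9 and 10. Syt4, at place 8 with 2677 exonic reads of which 97.83% lay in 1 cluster, met the same description without being among the 9. Next outside were Fbxw7 with 1336 exonic reads (91.17% in 1 cluster), Gmfb with 1223 (96.65%), Tnrc6a with 1213 (63.89%) and Mettl3 with 1146 (100%). Tnrc6b, with 1358 exonic reads in 31 clusters, had 42.78% in its deepest cluster, so a sum between those of Setd2 and Fbxw7 could also be spread over many sites. Ank2 and Syne1, at places 13 and 14, had 17.62% and 14.03% in their deepest clusters.

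Each gene held most of its exonic reads in its site, from 85.84% in Setd2 to 100% in Rps6kl1. Of the 8 genes with 2 or more exonic clusters, 8 had at least 50% of their exonic reads in 1 cluster, against 52.5% of the 5015 genes of the table with 2 or more exonic clusters. That contrast was fixed by the choice of genes. That the rest of each gene held little was fixed by the same choice. The 46 other exonic clusters held 10 to 108 reads with a median of 22.5, against the median of 21 for all exonic clusters, and the 17 intron clusters had a median of 19 reads. The deepest of those, in Fbxo32, had 1.92 reads per base.

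**Figure D1:**
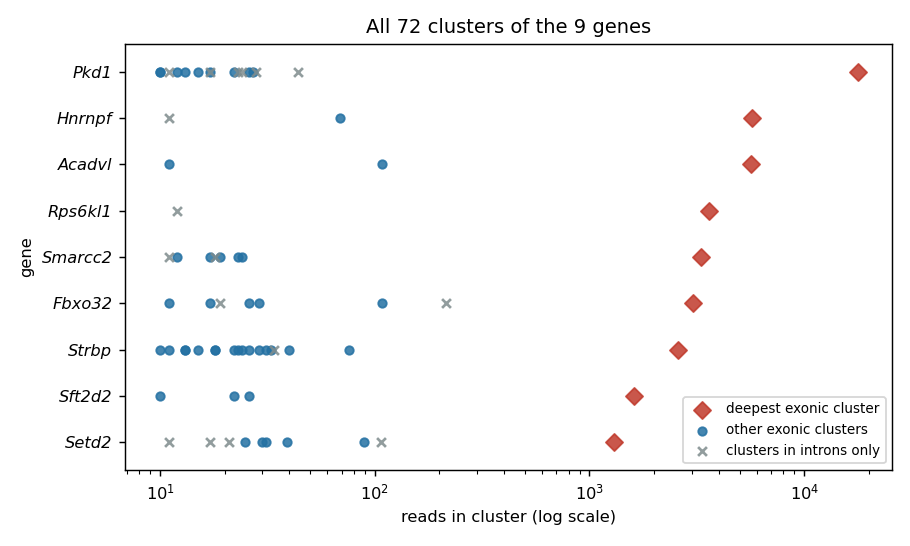
Reads in each of the 72 clusters of the 9 genes (horizontal axis, log scale), 1 gene per line. Diamonds are the deepest exonic clusters, circles the other exonic clusters and crosses the clusters in introns only. Every diamond lies at 1297 reads or more, and every circle at 108 or fewer.

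Sites of 130 to 159 bases and sites of 243 to 355 bases were both present. The median width was 159 bases, with a mean of 204.2 ± 78.77 (SD over 9 sites) and a range of 130 (Strbp) to 355 (Setd2), against a median of 137 bases and an interquartile range of 111 to 182 over all exonic clusters. Of the 9 sites, 5 lay between 100 and 200 bases, against 73.5% of all exonic clusters. Smarcc2 and Strbp were narrower than the median exonic cluster, with 48.95% and 44.11% of exonic clusters narrower than they were. The other 4 were wide: Setd2, Sft2d2, Hnrnpf and Rps6kl1 had 98.54%, 94.93%, 92.33% and 91.62% of exonic clusters narrower. Reads per base ran from 3.654 in Setd2 to 111.5 in Pkd1, against a median of 0.148 over all exonic clusters. By reads per base Pkd1, Acadvl and Smarcc2 held places 1 to 3, while Sft2d2 and Setd2 stood at places 15 and 30.

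**Figure D2:**
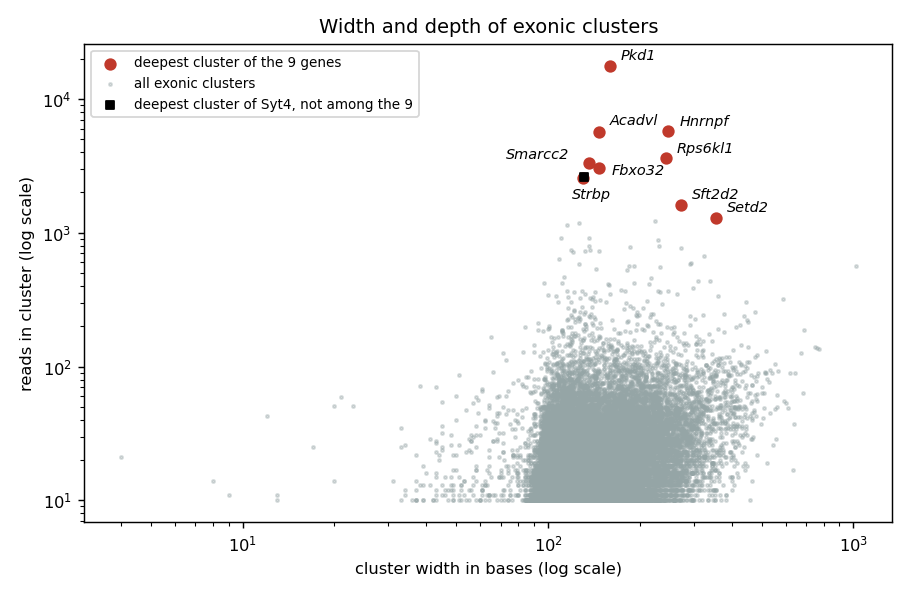
Width in bases (horizontal, log scale) and reads (vertical, log scale) of every exonic cluster. Large points are the sites of the 9 genes and the square is the deepest cluster of Syt4. The 9 sites lie above the cloud in reads, at widths of 130 to 355 bases that the cloud also covers.

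By place, 4 sites lay in 3′ UTRs (Hnrnpf, Fbxo32, Strbp, Sft2d2) and 5 in coding sequence (Pkd1, Acadvl, Rps6kl1, Smarcc2, Setd2). All coding sites but that of Setd2 also ran into intron. No cluster of the 9 genes named a second gene in these columns.

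**Figure D3:**
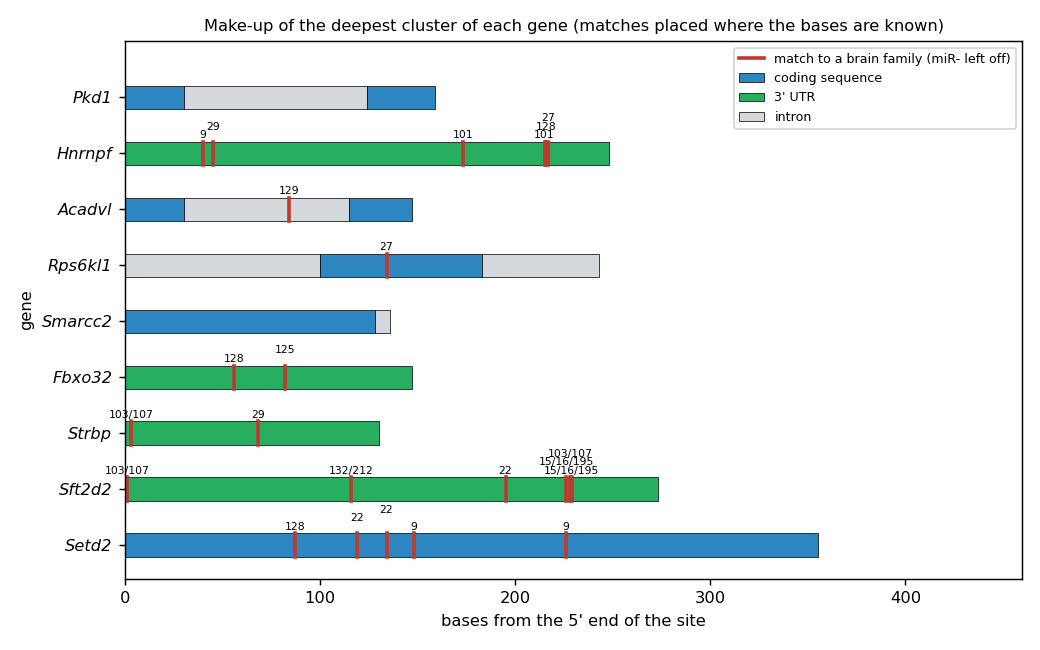
The 9 sites drawn to scale from their 5′ ends (horizontal axis, bases), coloured by annotation, with red ticks at 6-base matches to brain microRNA families whose mature sequence and site bases were both at hand. The sites of Pkd1 and Acadvl each hold 1 whole intron between coding margins of 30 to 35 bases, and that of Hnrnpf carries 3 overlapping matches near its 3′ end.

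The deepest exonic cluster of the table lay in Pkd1, which encodes polycystin-1, the large membrane protein altered in polycystic kidney disease. It held 17721 reads over 159 bases at chr17:24594948-24595106 (mm10, plus strand), 99.15% of the gene's exonic reads (95% Wilson interval 99.0 to 99.27%, counting error only). This was 656.3 times the reads of the next exonic cluster, which held 27. The site was made of the last 30 bases of exon 45, the whole intron between exons 45 and 46 of 46, and the first 35 bases of exon 46. The intron, chr17:24594978-24595071, was 94 bases long with a GC content of 74.47%. GENCODE M21 also annotates a microRNA gene, Gm24589, on the same strand with the same first and last base, so the reads could be assigned to either name. The intron is printed because its outline sits inside that of the cluster, with the splice dinucleotides in capitals.
Pkd1 intron: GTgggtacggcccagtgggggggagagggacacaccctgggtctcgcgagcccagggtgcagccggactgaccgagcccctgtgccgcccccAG
It opens with a run rich in G and closes with one rich in C. The Pkd1 site had no 6-base match to any of 30 microRNA families known from brain, and matched 4 of 22 families of other tissues (miR-126, miR-192, miR-205 and miR-223).

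The 15 other clusters of Pkd1 were shallow and spread along the gene. Its 9 other exonic clusters, all in coding sequence, held 152 reads together, and the nearest lay 1358 bases from the site. The next deepest held 27, 26 and 22 reads. The 27-read cluster matched miR-29 and miR-103, the 26-read cluster miR-101, and the 22-read cluster miR-22, miR-101 and miR-128. The 6 intron clusters held 147 reads, the deepest of them 44.

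The site of Acadvl, the mitochondrial dehydrogenase that opens the oxidation of very-long-chain fatty acids, had the same make-up. It held 5623 reads over 147 bases at chr11:70011567-70011713 (minus strand), 97.93% of exonic reads (97.53 to 98.27%). It covered 30 coding bases, the whole 85-base intron between exons 12 and 13 of 20 (chr11:70011599-70011683), and 32 further coding bases. The intron's GC content was 54.12%, below that of the Pkd1 intron. Both ends of the intron are printed for comparison, again with splice dinucleotides in capitals.
Acadvl intron, first 30 bases: GTgaggacccaggtgtgatgggagggcgga
Acadvl intron, last 30 bases: aatccaactcatctggttctctgtcctcAG
The only brain family matched was miR-129, whose 6 bases, capitals in the line that follows, fell inside the intron at bases 82 to 87 of the site.
Acadvl, miR-129 match: aggacctcagctCAAAAAtccaactcatct
Families of other tissues matched were miR-146 and miR-150. GENCODE M21 places Dvl2 on the opposite strand here, while the table's antisense column is empty for this cluster. The 2 other exonic clusters of Acadvl held 108 and 11 reads. The 108-read cluster lay 176 bases from the site, also crossed from coding sequence into intron, and matched miR-22 and miR-132.

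Sites that hold a whole short intron were rare. Among the 9 sites 2 held a whole annotated intron of 30 to 200 bases, against 0.579% of all exonic clusters (134 of 23138). The Pkd1 and Acadvl sites were the 2 deepest of those 134, ahead of Mast1 with 883 reads, Mettl26 with 405 and Syngr3 with 236, where the median was 27.5 reads. The 5 deepest all began exactly 30 bases before the intron. That distance was the most common one, found in 19 of the 134 clusters, while no other distance was found in more than 3. On the far side the margin was 27 to 35 bases in 19 clusters, and 6 clusters had both margins at 27 to 35 bases. A similar margin stood around known microRNAs. Of 21 clusters that hold at least 1 RefSeq mature microRNA, 13 began 29 to 33 bases before the first one (8 of them exactly 30). The end lay 30 to 36 bases after the last one in 13 clusters, and first and last can be different microRNAs. The sources used here do not say whether the intervals were widened by a set length. Of the 70142 clusters of the table, 265 were narrower than 61 bases, a width that leaves no base between 2 margins of 30. Widening of the intervals was not tested.

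**Figure D4:**
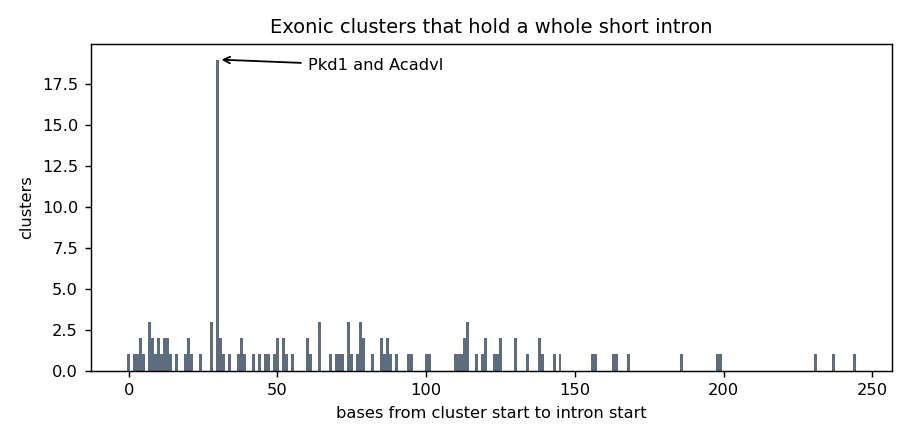
Number of clusters (vertical) by the distance in bases from the start of the cluster to the start of the intron (horizontal), for the 134 exonic clusters that hold a whole annotated intron of 30 to 200 bases. The bar at 30 bases has 19 clusters, Pkd1 and Acadvl among them, and no other bar has more than 3.

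The site of Rps6kl1, which encodes a protein named for its likeness to ribosomal protein S6 kinases, was the only exonic cluster of its gene. It held 3608 reads over 243 bases at chr12:85138371-85138613 (minus strand), and the gene's one other cluster was intronic with 12 reads. The site took in 100 bases of intron, the whole 83-base exon 9 of 11, and 60 bases of the next intron. It had 6 matches to 5 brain families, namely miR-19, miR-27 with 2 matches, miR-29, miR-99 and miR-124. One miR-27 match lay in exon 9, at bases 132 to 137 of the site. The other matches were not placed, because transcripts give only the 83 exonic bases and the genome sequence was not used here.

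Smarcc2 encodes BAF170, a core subunit of the BAF chromatin remodelling complex. Its site held 3317 reads over 136 bases at chr10:128469010-128469145 (plus strand), 97.22% of exonic reads (96.61 to 97.72%), and was made of 128 coding bases of exon 9 of 28 and 8 bases of the following intron. It was the single site with no match to either list of families, brain or other tissues. Its coding part is printed, since its depth of 24.39 reads per base goes with no listed seed.
Smarcc2 coding part: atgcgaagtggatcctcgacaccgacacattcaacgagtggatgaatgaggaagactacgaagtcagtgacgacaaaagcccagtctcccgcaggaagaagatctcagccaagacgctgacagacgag
Over all 1281 microRNA columns, brain or not, 54 had a match in it, so the gap concerns the listed families. The 5 other exonic clusters of Smarcc2 held 12 to 24 reads, all in coding sequence that runs into intron, and all 5 carried circular RNA identifiers.

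Setd2, the methyltransferase that trimethylates lysine 36 of histone H3, had the widest and least deep site. It held 1297 reads over 355 bases at chr9:110573876-110574230 (plus strand), 85.84% of exonic reads (83.99 to 87.5%), and lay wholly in coding exon 12 of 21. It matched miR-128 once, with base 8 paired as well, and miR-9 and miR-22 at 2 places each. Among the genes with another exonic cluster, its site stood least far above the next one, at 14.57 times its 89 reads. A 105-base intron cluster had 1.019 reads per base, with 2 matches to miR-132 and 1 to miR-218. The 89-read cluster matched miR-23, miR-30, miR-101 and miR-181.

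The remaining sites lay in 3′ UTRs. Hnrnpf encodes a heterogeneous nuclear ribonucleoprotein that binds runs of G and takes part in splicing. Its site held 5730 reads over 248 bases at chr6:117925313-117925560 (plus strand), 98.81% of exonic reads (98.5 to 99.06%). It spanned bases 312 to 559 of a 618-base 3′ UTR and ended 59 bases before the end of the transcript. Its GC content of 34.27% was the lowest of the 9 in the bases at hand, below the interquartile range of 42.04 to 54.03% for 3′ UTR clusters. It matched 5 brain families, with miR-101, miR-128 and miR-27 falling on the same 8 bases, 213 to 220 of the site. There miR-101 and miR-27 also paired at base 8, and miR-128 did not. A second miR-101 match lay at bases 171 to 176, and the miR-9 and miR-29 matches overlapped by 1 base near the start. The only other exonic cluster of Hnrnpf was in the 5′ UTR, with 69 reads and matches to miR-23, miR-29 and miR-34.

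Fbxo32 encodes atrogin-1, the F-box protein of a ubiquitin ligase best known from wasting muscle. Its site held 3041 reads over 147 bases at chr15:58180177-58180323 (minus strand), 94.09% of exonic reads (93.22 to 94.85%). It spanned bases 1146 to 1292 of a 5590-base 3′ UTR. It had 1 match to miR-128 and 1 to miR-125, both with base 8 paired, 17.5 and 8.5 bases from the centre of the site. The gene's next clusters were deeper than those of most of the other genes. A 112-base intron cluster had 1.92 reads per base and matched miR-27, miR-128 and miR-221, and a 178-base cluster of coding and intron bases held 108 reads (0.6067 per base) and matched miR-101 and miR-128. The 3 other clusters in the 3′ UTR held 26, 17 and 11 reads and lay 120 to 528 bases from the site.

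Strbp encodes a perinuclear protein that binds double-stranded RNA and is known from spermatids. It had the most clusters of the 9 genes after its site, 16 exonic and 1 intronic. The site held 2581 reads over 130 bases at chr2:37578159-37578288 (minus strand), 86.52% of exonic reads (85.25 to 87.7%), and spanned bases 5745 to 5874 of a 14165-base 3′ UTR. Its miR-29 match lay 3 bases from the centre, without base 8, and its miR-103 match lay on the first 6 bases of the site. Of the other exonic clusters 11 lay in the 3′ UTR and 5 in coding sequence. The next 3 held 76, 40 and 33 reads, and only that with 40 was in the 3′ UTR. All 5 coding clusters carried circular RNA identifiers.

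Sft2d2 encodes a small membrane protein of a family named after yeast Sft2, which acts in traffic to the Golgi. All 4 of its clusters lay in its 3′ UTR. The site held 1620 reads over 273 bases at chr1:165176192-165176464 (minus strand), 96.54% of exonic reads (95.56 to 97.32%), and spanned bases 2795 to 3067 of a 4922-base 3′ UTR. It had the most brain family matches of the 9 sites, with 8 to 5 families (miR-16, miR-22, miR-103, miR-124 and miR-132). The miR-132 and miR-22 matches and 1 of each of miR-16 and miR-103 also paired at base 8. That miR-103 match ran over the 5′ end of the site, with only its last 4 bases inside. A 10-read cluster lay 14 bases from the site, and the others held 26 and 22 reads.

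Across the 9 sites, the share with a brain family match was near that of all exonic clusters, while matches per base were more numerous. A match to at least 1 brain family was present in 7 of 9 sites, against 78.7% of all exonic clusters, and a match to at least 1 family of other tissues in 6 of 9, against 61.9%. Matches to brain families numbered 16.32 per 1000 bases in the sites and 12.18 per 1000 bases in all exonic clusters. By site they ran from 0 per 1000 bases in Pkd1 and Smarcc2 to 29.3 in Sft2d2. Matches to families of other tissues numbered 7.073 per 1000 bases in the sites and 6.612 in all exonic clusters. Overlapping matches to different families, as in Hnrnpf, were each counted. In the 46 other exonic clusters of the same genes 39 had a brain family match, at 12.74 per 1000 bases. The families found in most sites were miR-128 and miR-29, in 3 of 9 sites each, against 12.2% and 8.3% of all exonic clusters. With base 8 paired too, miR-128 had 2 sites and miR-29 had 0 in the bases at hand. miR-103, miR-124, miR-22, miR-9 and miR-27 were each found in 2 of 9, against 9.58%, 8.02%, 9.12%, 6.84% and 11.7%. Recurrence was not limited to brain families. Of the families of other tissues, miR-146 and miR-217 were also each found in 2 of 9, against 4.175% and 5.618%. With 9 sites, 1 site more or less moves each such count by a large part of its value. In the other exonic clusters of the 9 genes miR-7 was the most frequent, in 8 of 46, against 6.85% of all exonic clusters. The brain families with no match in any site were let-7, miR-7, miR-17, miR-23, miR-24, miR-26, miR-30, miR-34, miR-135, miR-137, miR-138, miR-153, miR-181, miR-218, miR-221 and miR-383.

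**Figure D5:**
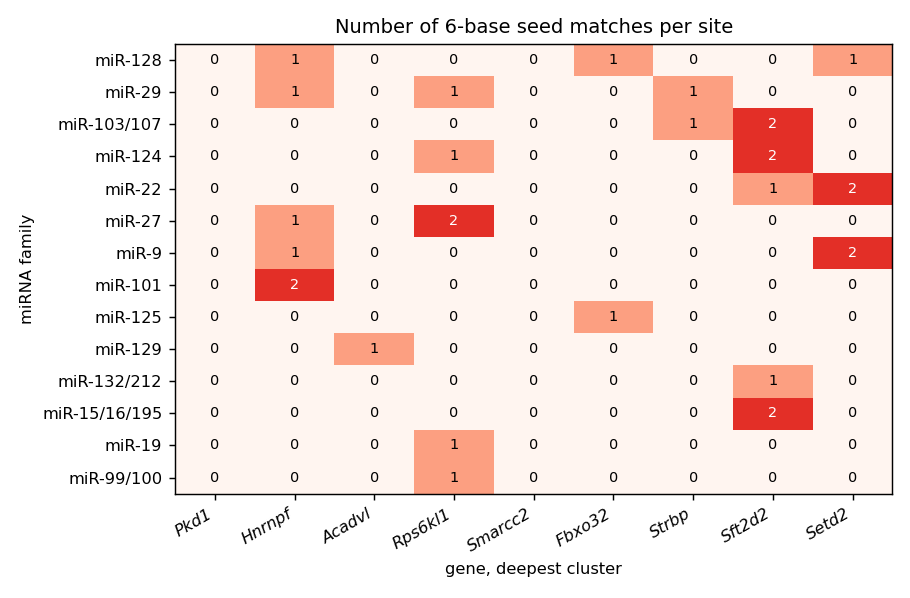
Number of 6-base matches in each site (columns) to each brain microRNA family with a match in at least 1 site (lines), as the table counts them. The columns of Pkd1 and Smarcc2 hold 0 throughout, and miR-128 and miR-29 have matches in 3 sites each.

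Beyond seeds, words were searched in the known bases, which are complete for 7 sites, 128 of 136 in Smarcc2 and 83 of 243 in Rps6kl1. In those bases no 6-base word was found in more than 4 of 9 sites. Of the 3 words at 4 sites, AGCCCA was present in 5.19% of 9923 exonic clusters of 100 to 200 bases. For GCTGAC the share was 4.323%, and for TGGGGG it was 7.306%. No 7-base word was found there in more than 3 sites. Base composition of the known bases differed widely, with GC contents between 34.27% (Hnrnpf) and 66.04% (Pkd1). The Pkd1 value lay above the interquartile range of 47.87 to 59.15% for coding clusters. It covers all 159 bases of the site, of which 94 are intron with a GC content of 74.47%. The sites of Smarcc2 and Setd2 carried a circular RNA identifier each, 2 of 9 sites, against 17.0% of exonic clusters. Among the other clusters of the 9 genes 12 did so.

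The reads of related genes are given for scale, since the choice of the 9 genes by reads fixed that nearly all other genes lie under them. Of 72 related genes in the annotation 45 had an exonic cluster, the median was 32 exonic reads, and no cluster of theirs held more than 152 reads (in Rps6ka3). Of 12 other hnRNP genes 10 had an exonic cluster, led by Hnrnph1 with 207 reads and Hnrnpl with 200, against 5799 for Hnrnpf. Among 17 other BAF subunits 13 did, led by Smarcc1 and Arid1a with 278 reads each, against 3412 for Smarcc2. Nsd1 with 468 reads and Ash1l with 244 led 4 of 5 other methyltransferases of histone H3 lysine 36, against 1511 for Setd2. Of 10 other acyl-CoA dehydrogenases 4 had one, led by Ivd with 48 reads and Acadsb with 28, against 5742 for Acadvl. Rps6ka3 with 240 reads and Rps6kc1 with 62 led 7 of 9 other S6 kinase genes, against 3608 for Rps6kl1. Skp1a with 120 reads and Rbx1 with 36 led the ligase genes (4 of 5), against 3232 for Fbxo32. Zfr, a relative of Strbp, had 106 exonic reads, against 2983 for Strbp. Pkd2, with 34 reads, was the only one with an exonic cluster of 8 other genes listed as polycystins or related to them, Pkhd1 included. Neither of the 2 other SFT2 genes had one.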

How the data were processed

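FLAG-Ago HITS-CLIP was done on mouse forebrain, and per the labels' protocols tissue was irradiated 3 times with 400 mJ/cm2 and libraries had 15 PCR cycles. Alignment was with BWA to mm10, per the submitters' processing notes. The sources used here do not give the version of BWA, the cluster caller, how libraries were pooled, how controls were used or whether duplicates were removed. The deposited table gives, per the file headers, 1 read count per cluster, not normalized, gene names by region, circular RNA identifiers, and for 1281 microRNAs the number of seed matches. Reads carry no molecular identifiers. Wilson intervals (95%) treat each read as an independent draw, so they cover counting error only and are too narrow if duplicates were counted.

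The members and lists used here were chosen with earlier results of these data known. An edgeR comparison of Flag-Ago2 with control was planned for a table with columns per library. This table has 0 such columns, so it was not run and values are described without tests. Named clusters are each gene's deepest exonic cluster, up to 3 further exonic ones by reads and, added after values were seen, intron clusters that stood out. Named genes outside the 9 are the 2 relatives per list with most exonic reads and the 5 next single-site genes. Tnrc6b, Ank2, Syne1, Mast1, Mettl26 and Syngr3 were added after values were seen.

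Site bases were rebuilt from GENCODE M21 transcripts, complete for 7 of 9 sites. In 27 families whose mature sequences were at hand, the deposited match number equalled a count of 6-base matches to microRNA bases 2 to 7 that overlap the cluster by at least 1 base in at least 99.98% of 13920 clusters. The counting code was tested on simulated data. Python 3.11.15, pandas 2.3.3, numpy 2.4.6 and scipy 1.17.1 were used. Alternatives were other denominators, a minimum of 20 reads, joining of clusters under 50 bases apart, 7-base matches, and sites without their outer 30 bases. One relative of Strbp and one stretch of the Sft2d2 site are not reported here.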

Additional observations from a re-analysis of the deposited data

Results flagged for a closer look

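One cluster lay outside the columns used above. On the strand opposite to Setd2, at chr9:110598474-110598606 (mm10, minus strand, 133 bases), a cluster of 14 reads was named in the antisense column only, above the table's lowest count of 10. It matched miR-16 and miR-103. No other cluster of the table names any of the 9 genes as antisense, and no value of the control mice is at hand to set beside it.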

How the results depend on the processing

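The site stayed the deepest cluster of its gene under every alternative run, which the choice of genes fixed in advance. With introns in the denominator its share was 98.34% for Pkd1, 99.67% for Rps6kl1, 96.4% for Smarcc2, 87.74% for Fbxo32 and 77.8% for Setd2. The shares of Hnrnpf (98.62%) and Strbp (85.55%) moved within their counting intervals. Those of Acadvl and Sft2d2 could not move, since these genes had no cluster in introns only. With clusters of at least 20 reads only, the share was 99.58% for Pkd1, 98.6% for Smarcc2, 94.91% for Fbxo32 and 89.46% for Strbp, and exonic clusters numbered 4 for Pkd1, 3 for Smarcc2 and 10 for Strbp. Joining clusters under 50 bases apart left Sft2d2 with 3 exonic clusters and a share of 97.14%, and Setd2 with 5 exonic clusters. No cluster of the 9 genes names several genes. Of all reads of the table the 9 sites held 2.428%. With 7-base matches, miR-22 was in 1 site, miR-29 in 0 and miR-103 in 1, but Rps6kl1 and Smarcc2 could be searched only in their known bases and miR-124 not at all. Without the outer 30 bases of each site, an alternative chosen after the data were seen, miR-103 was in 1 site. miR-128 then stood in 2 of 9 sites, Fbxo32 and Setd2. No paired analysis was possible because the table has no column of a single library. Leaving out a library could not be run for the same reason, nor could edgeR or DESeq2. Depth limits the shallow clusters most, since none under 10 reads is listed.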
